A study of Mus musculus with 3 samples.

Results

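The genes described here are 8 members of the immediate early response: Egr1, Egr2, Egr3, Nr4a1, Ier2, Ier3, Ier5 and Btg2. They were chosen by symbol, 8 of the 32285 genes in the deposited matrices, with their levels in these libraries already known, so their values are a description and support no test. Brain cells with intermediate CD45 and with CD11b on their surface, the usual gate for microglia (macrophages that live in brain tissue), were sorted at 4°C and sequenced cell by cell in droplets. Reads came from the 3' end of each transcript, and each captured molecule was counted once through its unique molecular identifier (UMI). Every group carried the same Apoe knockout, so no library shows the genes in mice with Apoe, and every group was 1 library from a pool of 4 mice taken at day 4. The sham group had sham induction and PBS. A second group received a control peptide after induction of NMOSD (which usually stands for neuromyelitis optica spectrum disorder, in which autoimmunity damages optic nerve and spinal cord), and the third had NMOSD induction and the peptide APOE130-149. The sham group lacked both the induction and the peptide, so the 2 cannot be told apart in a comparison with sham, and with 1 library a group nothing that differed between libraries in handling can be told apart from the treatment.

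Immediate early genes are transcribed within minutes of a stimulus from factors already in the cell, such as serum response factor with its Elk partners, which the ERK kinases activate, and the cyclic AMP response element binding protein CREB. Their mRNAs are short-lived and many of their proteins are transcription factors or feedback regulators, so the group is read as a mark of recent signalling. In microglia and other macrophages they are known to respond to growth factors, calcium, inflammatory ligands and stress, and also to the dissociation of tissue.

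Promoter sequences are shown for 4 of the genes so that their motifs can be set beside their levels: Btg2 and Ier5, which were among the abundant members in microglia, and Egr2 and Nr4a1, which were near the limit of detection there. RefSeq windows on GRCm38.p6 were at hand for 5 of the 8 members (Egr2, Nr4a1, Ier3, Ier5 and Btg2). Each line is the 250 bases before a transcription start, 5' to 3' on the strand of the gene, and capitals mark every match, on either strand, to the motifs searched. These were the cyclic AMP response element TGACGTCA (CRE), its short form TGACG, which every CRE also holds, the AP-1 site TGANTCA, and, by name, the TATA box, the Egr site, the CArG box bound by serum response factor, and the NF-kB site.
Btg2, chr1:134079156-134079405, minus strand: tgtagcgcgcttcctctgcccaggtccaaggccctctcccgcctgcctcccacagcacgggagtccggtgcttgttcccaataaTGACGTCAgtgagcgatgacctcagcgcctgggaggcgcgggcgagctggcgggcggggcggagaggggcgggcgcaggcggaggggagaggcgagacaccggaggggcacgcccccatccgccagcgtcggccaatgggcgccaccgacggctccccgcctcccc
Ier5, chr1:155099637-155099886, minus strand: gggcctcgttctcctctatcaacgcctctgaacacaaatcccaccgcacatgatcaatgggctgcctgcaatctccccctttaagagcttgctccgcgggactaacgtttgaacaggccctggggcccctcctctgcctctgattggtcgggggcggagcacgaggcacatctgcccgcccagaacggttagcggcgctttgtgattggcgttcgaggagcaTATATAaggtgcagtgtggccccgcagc
Egr2, chr10:67537619-67537868, plus strand: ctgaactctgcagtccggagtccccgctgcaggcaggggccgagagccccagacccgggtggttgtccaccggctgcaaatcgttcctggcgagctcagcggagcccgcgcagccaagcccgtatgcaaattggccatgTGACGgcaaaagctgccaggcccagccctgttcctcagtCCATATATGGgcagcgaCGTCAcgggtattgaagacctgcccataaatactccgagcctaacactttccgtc
Nr4a1, chr15:101266596-101266845, plus strand: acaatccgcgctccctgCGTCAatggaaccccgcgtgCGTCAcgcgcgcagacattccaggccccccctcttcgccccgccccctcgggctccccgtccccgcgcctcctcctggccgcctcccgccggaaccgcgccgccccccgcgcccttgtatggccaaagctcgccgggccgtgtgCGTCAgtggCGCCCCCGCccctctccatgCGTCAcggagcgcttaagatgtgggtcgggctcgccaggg
The Btg2 window held a full CRE 166 to 159 bases before the start, a motif found in 1.55% of the 32851 windows of this length. The Ier5 window held none of the motifs of serum response factor or CREB, only TATATA 28 to 23 bases before the start, and a TATA box was found in 15.6% of windows. The Egr2 window, 1 of 5 overlapping or alternative starts listed for that gene, held a CArG box 72 to 63 bases before the start (1.47% of windows) between 2 short-form CREs. Nr4a1 had 4 short-form CREs, all on the opposite strand, and an Egr site (3.06% of windows); the short form was found in 17.8% of windows. The Ier3 window held none of the 7 motifs, which says only that these letters are not in that window, and each match is a match of letters, not a bound site.

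The libraries held 4674 to 5306 barcodes in the sham and control peptide groups and 2175 in the APOE130-149 group, with 32060750 to 61469677 UMIs, and 4231, 5011 and 2025 cells passed the filter on cells in the order sham, control peptide, APOE130-149, the order used throughout. Median depth was 7124, 7848 and 9991 UMIs per cell. Apoe itself had 84.8, 123 and 134 CPM (UMIs scaled to the total of the class) in microglia, and a 3' tag need not lie in the deleted part of a gene, so these counts check no label. The sham and control peptide libraries shared 9 barcodes, the control peptide and APOE130-149 libraries 3, and the sham and APOE130-149 libraries 0. Cells were gated by marker genes, which gave 3886, 4496 and 1781 microglia (91.8%, 89.7% and 88.0% of cells), while border-associated macrophages, the macrophages of the meninges and perivascular spaces, numbered only 17, 16 and 18, neutrophils 19, 31 and 24, and monocytes 24, 47 and 25. The border-associated class carried microglia markers at a median of 0.234% to 0.298% of its UMIs, so microglial transcripts were not absent from it. Microglia markers made up a median of 1.43% to 1.59% of the UMIs of gated microglia, neutrophil markers 28.2% to 36.3% of those of neutrophils, and monocyte markers 0.903% to 0.942% of those of monocytes. Cells that passed more than 1 gate (196, 261 and 107) and cells that passed none (86, 105 and 53) were left out of the classes. Within the microglia, markers of cells that should not be there differed between libraries: the 4 choroid plexus markers summed to 1.13, 89.3 and 66.2 CPM, the 4 erythroid markers to 0.598, 26.4 and 9.22 CPM, and the 8 neutrophil markers to 334, 427 and 948 CPM. The 8 markers of border-associated macrophages summed to 57.2, 117 and 105 CPM, the 8 of monocytes to 52.2, 108 and 89.8 CPM, and the 6 of T and NK cells to 0.465, 5.84 and 1.93 CPM. The sum of the 6 B lineage markers went the other way, with 32.7 CPM in sham and 0.316 and 0.893 CPM in the NMOSD libraries. Taken singly, with no minimum CPM, 3 of them were at least 1.5-fold lower than in sham and 3 higher with APOE130-149. With the control peptide 3 were lower and 1 was higher. The defining markers Kl of choroid plexus and Alas2 of erythroid cells were at 0 in sham. The part of such foreign RNA in the levels below was not tested.

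In microglia 5 of the 8 genes, Egr1, Ier2, Ier3, Ier5 and Btg2, were at least 1.5-fold higher in each NMOSD library than in sham, and the largest ratio was that of Egr1. Egr2, Egr3 and Nr4a1 stayed under 6 CPM in every library. A gene was counted as higher when it had at least 10 CPM in either library and a ratio of at least 1.5; only these 5 of the 8 reached 10 CPM. Among all genes tested the same rule was met by 1.74% in the control peptide library against sham, by 1.91% in the APOE130-149 library against sham, and by 0.513% in the APOE130-149 library against the control peptide library, where 2 members, Egr1 and Ier2, met it. No member was 1.5-fold lower in any of the 3 comparisons (0.882%, 0.915% and 0.0835% of all genes). The median log2 ratio of the 8 members was 1.31, 1.66 and 0.35 in these comparisons, beside -0.07, -0.05 and 0.01 for all genes tested. The comparisons share the sham library or the control peptide library, so they are not independent of each other, and the members were chosen from these contrasts.

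**Figure D1:**
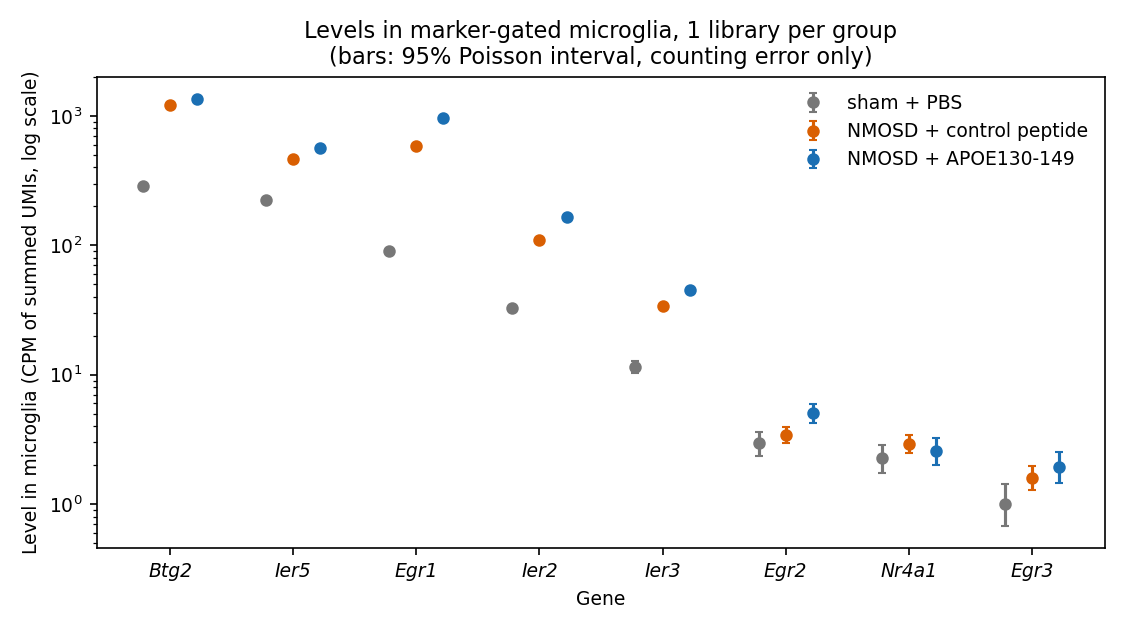
Levels of the 8 genes in marker-gated microglia, in CPM of summed UMIs on a log axis, 1 point per library with its 95% Poisson interval for counting error; genes run from the highest to the lowest level in sham. Btg2, Ier5, Egr1, Ier2 and Ier3 lie higher in both NMOSD libraries than in sham, while Egr2, Nr4a1 and Egr3 lie between 0.997 and 5.07 CPM.

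Egr1 encodes a zinc finger transcription factor that is induced by ERK signalling and lies at chr18:34859823-34864984 on the plus strand (GRCm38, as for all positions given here, none of which overlaps another annotated gene). Its level in microglia was 89.7 CPM in sham, 581 CPM with the control peptide and 957 CPM with APOE130-149. It was lowest in sham and highest with APOE130-149, with no overlap of the counting intervals. The ratio was 6.48 [95% interval 6.23 to 6.74] for the control peptide library against sham, 10.7 [10.3 to 11.1] for APOE130-149 against sham and 1.65 [1.62 to 1.68] between the NMOSD libraries; brackets cover counting error only, not the difference between mice or preparations. By level Egr1 stood at rank 1870 of 17666 detected genes in sham, 239 of 18569 with the control peptide and 146 of 18055 with APOE130-149.

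Egr2 (chr10:67535475-67542188, plus strand) and Egr3 (chr14:70077203-70082614, plus strand) encode zinc finger factors of the same family that bind the same kind of site. Egr2 was measured at 2.96, 3.42 and 5.07 CPM, from 89, 184 and 142 UMIs. It did not differ beyond counting error between sham and the control peptide library (ratio 1.16 [0.893 to 1.51]) and was highest with APOE130-149 (1.71 [1.31 to 2.26] against sham). That last ratio ran from 1.25, with each cell thinned to 3000 UMIs, to 2.57 with a mean over cells. In sham 83.1% of the Egr2 UMIs lay in 39 cells. Egr2 was found in 0.727% [0.451 to 1.11] of thinned sham cells and 1.30% [0.808 to 1.98] with APOE130-149, with overlapping intervals. Egr3 was lower still, at 0.997, 1.60 and 1.93 CPM from 30, 86 and 54 UMIs. All 30 Egr3 UMIs of the sham library came from 12 cells, and 11 of them from 1 cell. Its ratios of 1.60 and 1.93 against sham became 0.857 and 0.689, in the opposite direction, when each cell was thinned to 3000 UMIs, so no direction is given for Egr3.

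Nr4a1 (chr15:101254269-101274795, plus strand) encodes Nur77, an orphan nuclear receptor that is induced early in many cells and is required for the patrolling subset of monocytes. In microglia its level was 2.26, 2.90 and 2.57 CPM. The 3 intervals overlapped, and the ratios were 1.28 [0.959 to 1.73], 1.14 [0.805 to 1.61] and 0.887 [0.661 to 1.18]. The ratios to sham moved with the processing, to 2.02 for the control peptide with the gate thresholds multiplied by 2, to 1.94 for APOE130-149 without the 0.25% of cells with most Nr4a1 UMIs, and to 0.876 and 0.948 with a mean over cells. The interval between the NMOSD libraries leaves room for a level 1.18 times as high or 0.661 times as high with APOE130-149. Between 1.004% and 2.75% of microglia held a Nr4a1 UMI.

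Ier2 (chr8:84661331-84662852, minus strand) encodes a small nuclear protein of the immediate early response. Its level was 32.7, 110.2 and 166 CPM. The order of the libraries was that of Egr1, with ratios of 3.37 [3.15 to 3.61] and 5.06 [4.73 to 5.43] against sham. Between the NMOSD libraries the ratio was 1.502 [1.44 to 1.56], at the edge of the 1.5-fold rule, and it fell under that edge in 5 of the alternatives tried.

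Ier3 (chr17:35821684-35822923, plus strand) encodes a regulator of cell survival that is induced by NF-kB and ERK signalling. It was measured at 11.4, 33.7 and 45.0 CPM. Sham was again lowest, and the ratios were 2.96 [2.63 to 3.33] and 3.94 [3.50 to 4.46] against sham and 1.33 [1.24 to 1.43] between the NMOSD libraries. Ier5 (chr1:155096361-155099636, minus strand) encodes a regulator that acts with protein phosphatase 2A and heat shock factor 1. Its level was 225, 466 and 567 CPM. It had the smallest ratios of the 5 genes against sham, 2.07 [2.02 to 2.13] and 2.52 [2.45 to 2.59], and 1.22 [1.19 to 1.24] between the NMOSD libraries.

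Btg2 (chr1:134075170-134079120, minus strand) encodes an antiproliferative protein that binds the CCR4-NOT deadenylase and promotes mRNA decay. It had the most UMIs of the 8 genes in every library, with 289, 1208 and 1355 CPM in microglia. It differed less between the NMOSD libraries than any other of the 5 genes (1.12 [1.11 to 1.14]) while its ratios to sham were 4.18 [4.09 to 4.27] and 4.69 [4.58 to 4.80]. By level it stood at ranks 460, 118 and 97.

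**Figure D2:**
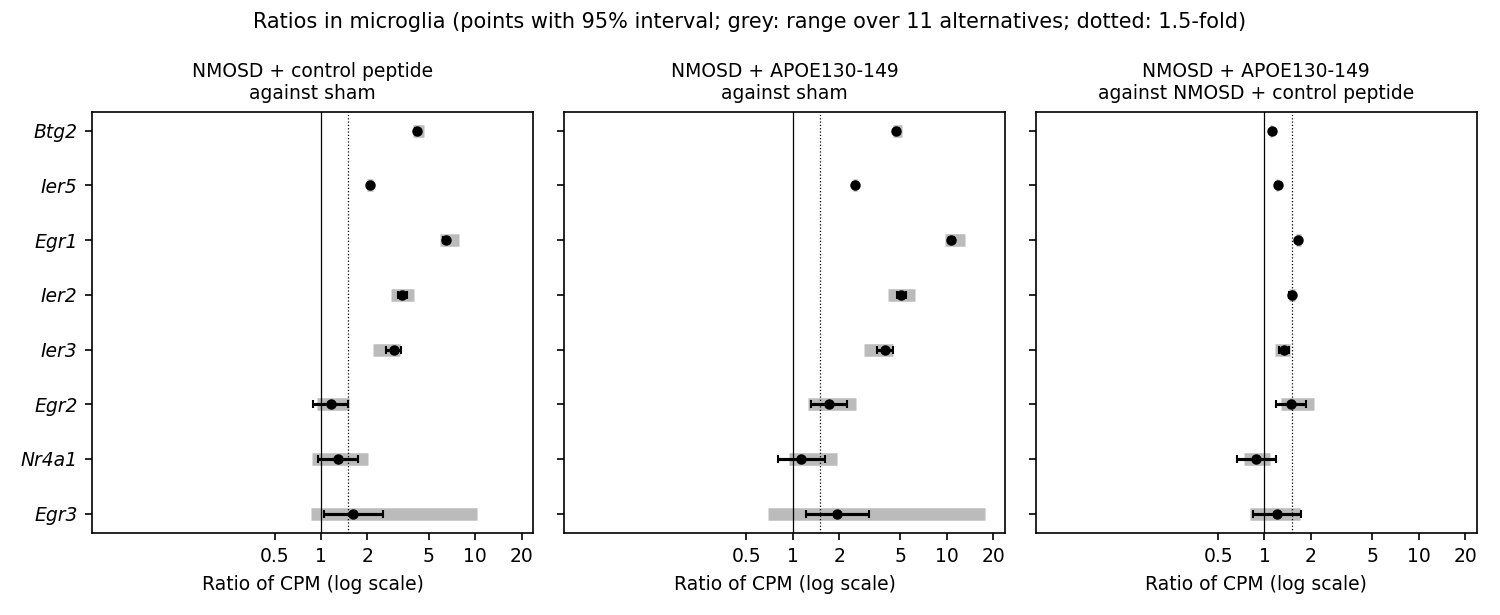
Ratio of CPM in microglia for each gene in the 3 comparisons, on a log axis, as points with 95% intervals; the grey bands span the ratio under 11 alternative ways of processing and the dotted line is 1.5-fold. Egr1, Btg2, Ier2, Ier3 and Ier5 lie right of the dotted line in both comparisons with sham. The bands of Egr3 and Nr4a1 cross 1 in every comparison, and that of Egr2 crosses 1 for the control peptide against sham.

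Detection per cell followed the same order of libraries for Egr1, Btg2, Ier5, Ier2 and Ier3. Because depth differed (under 3000 UMIs were held by 25.7% of microglia in sham, 7.74% in the control peptide library and 9.49% in the APOE130-149 library), each cell was also thinned at random to 3000 UMIs and those shallower cells (999, 348 and 169) were left out. An Egr1 UMI was found in 12.8%, 66.2% and 83.7% of microglia as deposited and in 8.38% [7.40 to 9.45], 53.8% [52.3 to 55.3] and 72.5% [70.2 to 74.6] after thinning. The corresponding thinned shares were 47.7%, 80.7% and 84.5% for Btg2 and 45.7%, 68.2% and 73.9% for Ier5 (as deposited 61.1%, 89.0% and 92.1%, and 64.8%, 87.7% and 90.6%). Sham was lowest for each of these genes, and Btg2 and Ier5 were found in more sham cells than Egr1. Ier2 was found in 5.54%, 20.6% and 31.0% of thinned cells (11.1%, 42.1% and 57.3% as deposited). Ier3 was found in 2.70%, 7.23% and 7.94% (5.82%, 18.8% and 23.8% as deposited), and its intervals in the NMOSD libraries overlapped. The thinned shares of Nr4a1 (0.450%, 0.868% and 0.620%) and Egr3 (0.242%, 0.338% and 0.310%) were highest with the control peptide, each with overlapping intervals. No gated class is known to lack these genes and so to show their free RNA; the 55 and 17 cells of other types in the NMOSD libraries had 21.4 and 27.1 CPM of Egr1 from 11 and 4 UMIs, against 581 and 957 CPM in microglia.

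Few sham microglia carried much of the Egr1 RNA. In sham 49.5% of the Egr1 UMIs lay in the 1% of microglia with most of them (39 cells), against 11.99% (45 cells) with the control peptide and 9.95% (18 cells) with APOE130-149. Among thinned cells that held an Egr1 UMI, the mean was 3.16, 3.03 and 3.81 UMIs. As deposited, cells with an Egr1 UMI held on average 5.44, 10.5 and 18.0 of them, at median depths of 9411.5, 8972 and 10948 UMIs, so the amount per such cell was lowest in sham only without thinning. For Btg2 the mean in thinned cells that held it was 1.91, 4.68 and 4.88 UMIs. When the 0.25% of microglia with most UMIs of the gene were left out, the Egr1 ratios to sham were 7.83 and 13.04.

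**Figure D3:**
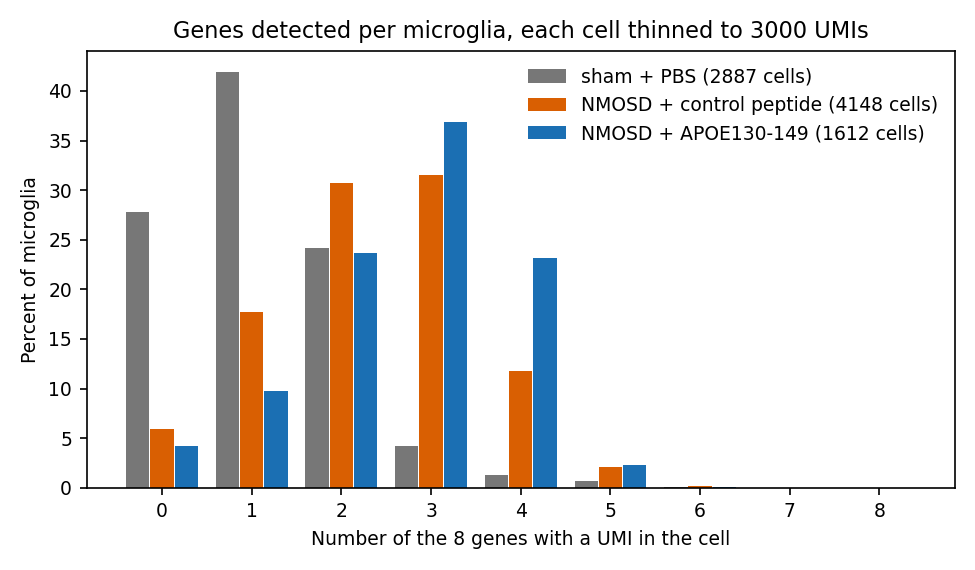
Percent of microglia, each thinned to 3000 UMIs, by the number of the 8 genes with at least 1 UMI in the cell, with 1 bar per library (2887, 4148 and 1612 cells). Sham cells lie mostly at 0 to 2 genes, and cells of the NMOSD libraries mostly at 2 to 4.

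A thinned microglial cell held on average 1.12 of the 8 genes in the sham library, 2.33 in the control peptide library and 2.72 in the APOE130-149 library. None of the 8 was found in 27.7%, 5.91% and 4.22% of cells. At least 4 were found in 1.97% [1.499 to 2.55], 14.1% [13.1 to 15.2] and 25.5% [23.4 to 27.7]. Cells with several of the genes were thus rare in sham and most frequent with APOE130-149, and no cell held all 8. The summed UMIs of the 8 genes had a median of 1, 6 and 8 per thinned cell, and the top 1% of sham cells began at 21.1 UMIs, above the sham 90th percentile of 4.

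Several of the genes tended to be found in the same cells, though not every pair did. For each of the 28 pairs the share of thinned microglia with both genes was divided by the product of the single shares. The median was 2.50, 1.19 and 1.07, and with APOE130-149 Ier2 and Ier3 had 1.01. Ier2 was found in 24.4% [19.1 to 30.3] of sham microglia with an Egr1 UMI and in 3.82% [3.12 to 4.62] of those without. With the control peptide these shares were 25.7% and 14.7%, and with APOE130-149 36.3% and 17.1%. Cells with Egr1 thus held Ier2 more often in every library, and the gap was widest as a ratio in sham, where few cells without Egr1 held Ier2. Btg2 was found in 70.2% and 45.7% of sham cells with and without Egr1, in 90.3% and 69.6% with the control peptide, and in 90.6% and 68.5% with APOE130-149. Of the 1% of microglia with most Egr1 UMIs, 28 of 39 in sham, 27 of 45 with the control peptide and 9 of 18 with APOE130-149 were also among the 1% with most Btg2 UMIs; deep cells have more UMIs of every gene, and this overlap was taken without thinning.

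**Figure D4:**
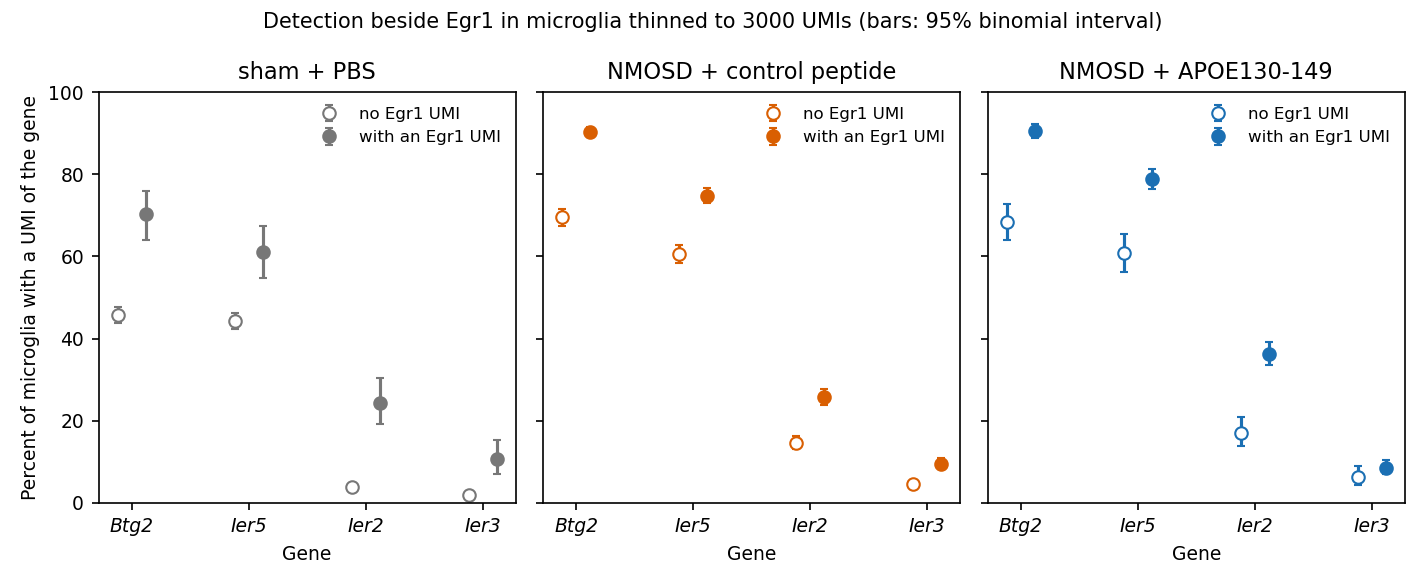
Percent of microglia thinned to 3000 UMIs that held a UMI of Btg2, Ier5, Ier2 or Ier3, split into cells without (open) and with (filled) an Egr1 UMI, with 95% binomial intervals, 1 panel per library. Filled points lie higher than open ones for Btg2, Ier5 and Ier2 in each library, and the Ier3 intervals overlap with APOE130-149.

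Across thinned microglia the Pearson correlation of log(1 + UMIs) is given as a description over 2887, 4148 and 1612 cells that share a library and 1 depth. Egr1 and Btg2 had 0.398, 0.394 and 0.403, nearly the same value in the 3 libraries. Egr1 and Ier2 had 0.483 in sham and lower values, 0.252 and 0.280, in the NMOSD libraries. Ier5 and Btg2 had 0.214, 0.253 and 0.315. The median over all 28 pairs was low, 0.116, 0.0783 and 0.0421. Egr2, Egr3 and Nr4a1, which enter most of these pairs, were each found in at most 1.30% of thinned cells, and 28 pairs of the microglia markers had medians of 0.0997, 0.122 and 0.139. At 1000 UMIs per cell the medians over member pairs were 0.0179, 0.0270 and 0.0222, so these values depend on depth.

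The genes whose UMIs followed the summed UMIs of the 8 most closely across thinned microglia were Jun (mean correlation over the 3 libraries 0.492), Fos (0.455), Junb (0.441), Jund (0.408) and Zfp36 (0.402). They were ranked among the 3522 genes with at least 50 CPM in microglia of a library, whose median was 0.00646 and 99th percentile 0.139. Btg2 was the largest part of the sum, with a mean of 0.910, 3.78 and 4.12 UMIs per thinned cell. The summed mean was 2.02, 7.30 and 9.26 UMIs, so the ranking does not weigh the 8 genes equally. The first 4 encode subunits of the AP-1 transcription factor, and Zfp36 encodes tristetraprolin, which promotes decay of AU-rich mRNAs. In microglia Jun had 535, 2314 and 3296 CPM and Fos 83.4, 507 and 902 CPM, lowest in sham and highest with APOE130-149.

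Other genes of the response were described with fixed lists, by the same 1.5-fold rule. Of 33 other immediate early genes, 22 reached 10 CPM in the control peptide and sham libraries and 14 of them were higher with the control peptide; the counts were 16 of 25 for APOE130-149 against sham and 7 of 25 between the NMOSD libraries, and 0 were lower in any. The median log2 ratio of this list was 1.25, 1.40 and 0.37. Its largest ratios to sham were those of the zinc finger factors Klf4 (10.3, 114 and 224 CPM) and Klf2 (51.3, 426 and 724 CPM). At its lower end Myc had 22.6, 19.6 and 28.6 CPM and Cebpd 130.0, 117 and 116 CPM, so the genes of the list did not all differ. Of the relatives and partners of the 8 genes (other Egr, Nr4a, Ier, Btg and Tob genes, the Egr corepressors Nab1 and Nab2, the nuclear receptor Rxra, and the deadenylases Cnot7 and Cnot8), 8 of 13 reached 10 CPM and 1, Btg1, was higher in both NMOSD libraries, at 363, 676 and 867 CPM. The kinases and factors upstream of the response did not differ by 1.5-fold: 0 of 19 at 10 CPM or more were higher and 0 lower in each comparison, and mRNA levels do not show kinase activity. Of 9 heat shock genes at 10 CPM or more, 1 was higher with the control peptide and 2 with APOE130-149 than in sham; these were Hspa1a (8.05, 13.2 and 30.5 CPM) and, with APOE130-149, its near-identical copy Hspa1b (14.9, 11.4 and 29.9 CPM), between which reads may be split.

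Outside the microglia the levels of Egr1 rest on few cells. Egr1 in monocytes was 49.4, 48.2 and 44.1 CPM from 17, 36 and 18 UMIs, with overlapping intervals. In border-associated macrophages it was 130.0, 196 and 142 CPM, but 16 of the 18 sham UMIs were in 1 cell. Without the 1 cell with most Egr1 UMIs in each library the class had 15.2, 121 and 69.6 CPM, with sham lowest as in microglia and with an interval that overlapped that of APOE130-149. In neutrophils it was 451, 52.7 and 37.3 CPM, and 46 of the 59 sham UMIs were in 1 cell, without which sham had 107 CPM [56.9 to 183]. With that cell included, the sham neutrophils lay above sham microglia in Egr1, by 5.02 [3.81 to 6.5] times. Without it their interval held the sham microglial level of 89.7 CPM. In the control peptide library Egr1 was lower than in microglia in each of these classes, at 0.337 [0.209 to 0.515] of the microglial level in border-associated macrophages, 0.0907 [0.0469 to 0.159] in neutrophils and 0.0829 [0.0581 to 0.115] in monocytes. With APOE130-149 the ratios were 0.148, 0.0389 and 0.0460.

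Nr4a1 was higher in monocytes than in microglia in every library. Monocytes had 37.8, 34.8 and 39.2 CPM from 13, 26 and 16 UMIs, and the 3 libraries did not differ beyond counting error. These levels were 16.7 [8.47 to 30.5], 11.99 [7.60 to 18.2] and 15.2 [8.27 to 26.4] times those of microglia in the same library. Neutrophils had 15.3, 65.9 and 29.0 CPM from 2, 15 and 7 UMIs, and 7 of the 15 control peptide UMIs were in 1 cell. They too lay above microglia in the NMOSD libraries, by 22.7 [12.4 to 38.6] and 11.3 [4.38 to 24.4] times. In sham the interval held 1 (6.76 [0.802 to 25.4]). In border-associated macrophages only 1 Nr4a1 UMI was found over the 3 libraries, and 0 UMIs in the sham class allow up to 21.7 CPM.

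Ier2 was highest in neutrophils, at 458, 399.7 and 339.6 CPM, followed by monocytes at 148, 210.0 and 223 CPM. Neutrophils lay above microglia in every library, by 14.0 [10.6 to 18.2], 3.63 [2.92 to 4.46] and 2.05 [1.63 to 2.55] times. Ier2 in border-associated macrophages was 137, 103 and 124 CPM with overlapping intervals. Ier3 in neutrophils was 221, 127 and 41.4 CPM, lowest with APOE130-149, whereas in monocytes it was 52.3, 82.9 and 75.9 CPM and in border-associated macrophages 93.9, 37.3 and 53.3 CPM, each with overlapping intervals. Of the 13 sham Ier3 UMIs of the border-associated class 10 were in 1 cell, as were 12 of the 29 of sham neutrophils. Without the 1 cell with most Ier3 UMIs in each library neutrophils had 134, 99.5 and 21.4 CPM, and the first pair of intervals overlapped.

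Ier5 in monocytes was 95.9, 162 and 181 CPM, below the microglial level in every library. Border-associated macrophages had 152, 364 and 417 CPM of Ier5, lowest in sham as in microglia, and neutrophils 153, 219.6 and 145 CPM. Btg2 was 347, 877 and 559.5 CPM in border-associated macrophages, 962, 817 and 617 CPM in neutrophils, and 311, 520.4 and 384 CPM in monocytes. Among neutrophils it was highest in sham, with an interval that overlapped that of the control peptide library, and in the other pair of classes it was highest with the control peptide. In the border-associated class 27 of 48 sham and 36 of 94 control peptide Btg2 UMIs were in 1 cell, and without the 1 top cell of each library it had 159.7, 595 and 415 CPM. In these small classes between 18.4% and 32.8% of all genes met the 1.5-fold rule in one direction, so no count of members is read from them. Egr2 and Egr3 had 0 to 4 UMIs in each of the small classes.

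**Figure D5:**
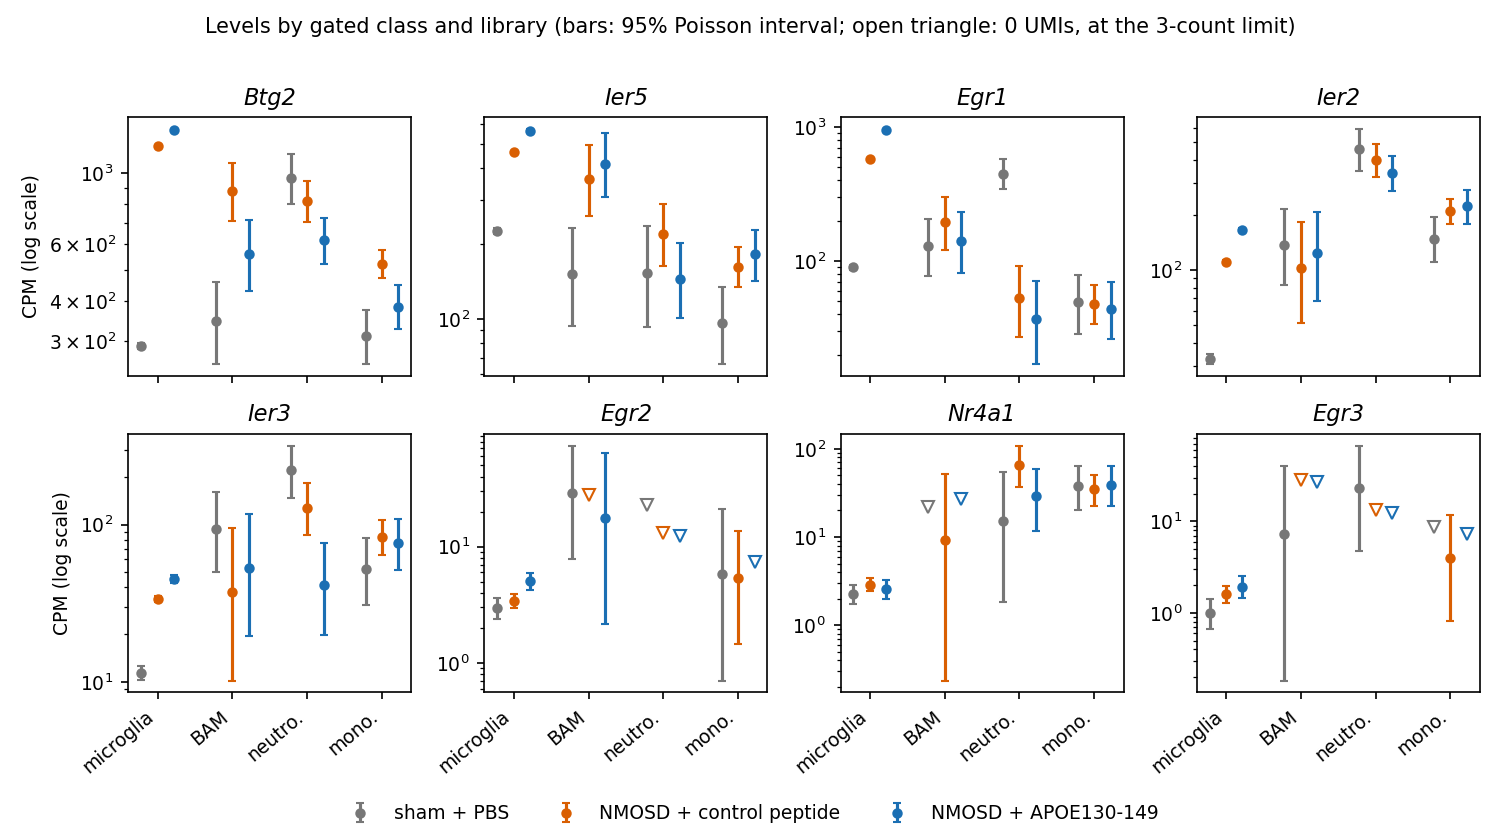
Levels of each gene by gated class (microglia, border-associated macrophages as BAM, neutrophils, monocytes) and library, in CPM on a log axis with 95% Poisson intervals; open triangles stand for 0 UMIs and are drawn at the level of 3 counts. Egr1 is highest in microglia of the NMOSD libraries. Nr4a1 lies higher in monocytes than in microglia, and so it does in neutrophils of the NMOSD libraries. The wide bars of the small classes reflect their 16 to 47 cells.

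Among cells outside the classes, those that passed more than 1 gate had 82.5, 394 and 783 CPM of Egr1, in the order seen in microglia. Cells that passed no gate had 61.3, 127 and 91.8 CPM, highest with the control peptide. Ier3 was highest in the ungated sham cells, at 189.7 CPM from 99 UMIs, against 60.1 and 76.9 CPM in the NMOSD libraries. Over all cells that passed the filter, whatever their class, the 5 genes kept ratios of at least 1.5 to sham in both NMOSD libraries.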

How the data were processed

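The deposited matrices hold UMI counts per gene and barcode, made by the authors; the submitters' processing notes list Cell Ranger (5.0.1), Seurat (4.3.0) and mm10, while the file headers name cellranger 7.0.1. Whether intronic reads or strand were used is not given in the sources used here. The barcodes deposited are those already called as cells. Groups came from the treatment labels, with 1 library each, so no p-value across libraries was possible and none was computed.

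Cells were kept if they had 500 or more genes and a mitochondrial share of UMIs up to 10% (11267 of 12155). A cell joined a class when at least 3 of 8 markers had a UMI and their summed share of UMIs reached 0.5% (microglia), 0.2% (border-associated macrophages), 2% (neutrophils) or 0.3% (monocytes); these thresholds were set on the marker distributions after the data were seen. Of 9 lists for other cell types, at least 2 markers and 0.2% were needed. Doublets were not called; leaving out cells above 2 times the median depth was an alternative, and cells in more than 1 gate were left out. Counts were summed per library and class and scaled to CPM, with exact Poisson intervals, exact conditional intervals for ratios and Clopper-Pearson intervals for shares, all 95%, for counting error only; 0 UMIs allow up to 3 counts. Thinning drew UMIs without replacement (seed 1). Scripts used Python 3.11.15, numpy 2.4.6, scipy 1.17.1, pandas 2.3.3, matplotlib 3.10.9, and edgeR 4.0.16 in R 4.3.3 for TMM factors only. The count and interval code was tested on simulated data.

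The members and lists were chosen with earlier results of these data known. The text names the 8 members, the 2 highest and 2 lowest genes of a list at most, the 5 genes most like the members, and Apoe. Gene positions came from a GENCODE annotation of GRCm38, and promoter windows from RefSeq on GRCm38.p6.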

Additional observations from a re-analysis of the deposited data

Results flagged for a closer look

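For some genes the ratio in a small class lay below 1 while that in microglia lay above 1, with both 95% counting intervals excluding 1. The difference between classes was not tested, each group is 1 library, and the small classes hold 16 to 47 cells. In neutrophils against sham, Egr1 had ratios of 0.117 with the control peptide and 0.0827 with APOE130-149, and 46 of the 59 sham UMIs were in 1 cell. Ier3 had 0.575 and 0.187 in the same comparisons, with 12 of the 29 sham UMIs in 1 cell, and Btg2 0.641 with APOE130-149. Between the NMOSD libraries, APOE130-149 against the control peptide, Ier3 had 0.325 and Btg2 0.755 in neutrophils, and Btg2 had 0.638 in border-associated macrophages, with 36 of the 94 control peptide UMIs in 1 cell, and 0.739 in monocytes, beside microglial ratios of 1.33 for Ier3 and 1.12 for Btg2. Several of these rest on single cells. Without the 1 cell with most UMIs of the gene in each library, neutrophils had 107, 35.6 and 22.2 CPM of Egr1, 134, 99.5 and 21.4 CPM of Ier3, and 851, 766 and 607 CPM of Btg2, in the order sham, control peptide, APOE130-149. The intervals then overlapped between sham and the control peptide for Egr1 and Ier3, and between every 2 libraries for Btg2. Btg2 in border-associated macrophages then had 595 CPM with the control peptide and 415 CPM with APOE130-149, with overlapping intervals, and without only the top control peptide cell it had 595 beside 559.5 CPM. In monocytes it had 492 and 343 CPM, whose intervals did not overlap.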

How the results depend on the processing

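The counts of members at least 1.5-fold higher or lower in microglia were recomputed under each alternative, and 67 of 72 were within 1.5 times of the value given. The 5 exceptions concern APOE130-149 against the control peptide, where the count of 2 became 1 because Ier2 came under 1.5-fold: with cells of 1000 or more genes and up to 5% mitochondrial UMIs, with the gate thresholds multiplied by 2, with all cells whatever their class, with median-of-ratios scaling and with TMM scaling. The 67 include the counts lower, which were 0 and stayed 0. They also include counts that changed by less than 1.5 times. With no minimum CPM, Egr3 also passed 1.5-fold against sham in both NMOSD libraries (1.60 and 1.93), as did Egr2 with APOE130-149 (1.71). Over 11 alternatives the Egr1 ratio ran from 5.88 to 7.83 (control peptide against sham), 9.65 to 13.04 (APOE130-149 against sham) and 1.61 to 1.74 (between NMOSD libraries), and that of Ier2 between NMOSD libraries from 1.44 to 1.58. The Egr3 ratio reversed when cells were thinned to 3000 UMIs, to 0.857 (control peptide against sham) and 0.689 (APOE130-149 against sham), and was 10.3 and 17.7 when the 0.25% of cells with most Egr3 UMIs were left out; thinning leaves 7, 14 and 5 cells with Egr3. Of 264 single ratios 184 moved by less than their interval, 78 moved by more and 2 reversed. Reversed means that a ratio of at least 1.5-fold in either direction changed side. Of 264 levels by class 69 moved by more. Of 48 shares of cells 47 moved at lower depth, but thinning itself lowers detection, so this count checks nothing. The 3 median correlations were lower at 1000 than at 3000 UMIs per cell, with no interval to set them against. Ratios whose interval held 1 also changed side: Egr2 of the control peptide against sham in 2 alternatives (lowest 0.937), Nr4a1 against sham in 1 each (0.876 and 0.948) and between NMOSD libraries in 1 (1.08), and Egr3 between NMOSD libraries in 2 (lowest 0.804). No scaling moved the median log2 ratio of all genes by more than 0.1. Leaving out the 1 cell with most UMIs of a gene, in the small classes, was added after seeing the data. Depth limits Egr2, Egr3 and Nr4a1 in microglia and all genes in the small classes, and 1 library a group limits every comparison. No paired analysis was possible because each group has 1 library.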
